A study of Homo sapiens with 36 samples.

Results

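The transcripts of 10 integrin subunit genes were followed through 4 knockdown experiments: the alpha subunits ITGA2, ITGA3, ITGA5, ITGA6 and ITGAV and the beta subunits ITGB1, ITGB3, ITGB4, ITGB5 and ITGB8. They were chosen by symbol, with earlier results of these data known. Each of the 10 had a row in all 4 count tables, among 15830 to 18770 genes per table. All 10 passed the low-count filter in every experiment, so no subunit was lost before testing. The series holds RNA sequencing of 36 libraries in 12 groups of 3, from 2 established human cell lines: 293T, derived from embryonic kidney and carrying the SV40 large T antigen, and MDA-MB-231, derived from a metastatic breast cancer. In each line, the prolyl hydroxylase EglN2 was knocked down by siEglN2-1 or siEglN2-2, with siControl as control siRNA, and the histone H3 lysine 4 demethylase KDM5A by shKDM5A-1 or shKDM5A-2, with shControl as control shRNA. The title and design of the series concern hydroxylation of proline 16 on histone H3 and its link to both proteins. All cells grew in the same serum-containing medium, and the groups used here differed by cell line and by the RNA reagent given. Each library was total RNA of a whole culture, so fewer cells of one kind and less RNA per cell cannot be told apart. Separate cultures within a group are not recorded, so that p-values cover the spread among these libraries, which may be technical.

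Integrins are adhesion receptors made of 1 alpha and 1 beta subunit, and a subunit reaches the cell surface only as part of such a pair. ITGB1 (beta1) is the common partner of many alpha subunits: with ITGA2 it forms a collagen receptor, with ITGA3 or ITGA6 laminin receptors, and with ITGA5 the classical fibronectin receptor. ITGB4 (beta4) pairs with ITGA6 and anchors epithelial cells to laminin in hemidesmosomes. ITGAV (alphaV) pairs with ITGB3, ITGB5 or ITGB8 as well as with ITGB1, and binds ligands with an RGD sequence such as vitronectin, fibronectin and latent TGF-beta.

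The knockdowns lowered their targets in every library. EGLN2 lay between 60.2 and 73.7 CPM (counts scaled to the TMM-adjusted library total) in 293T siControl libraries and between 21.9 and 22.7 CPM in the 6 siEglN2 libraries. In MDA-MB-231 it lay between 105 and 106.5 CPM and between 20.8 and 25.1 CPM. KDM5A lay between 66.2 and 67.6 CPM in 293T shControl libraries and between 26.3 and 32.7 CPM with the shRNAs, and between 47.0 and 54.9 CPM and between 16.1 and 19.4 CPM in MDA-MB-231. Library totals ran from 14361214 to 27592132 counts. The list of 8 MDA-MB-231 marker genes, which includes VIM and CD44, summed to 7540 to 7880 CPM in MDA-MB-231 controls and to 922 to 1560 CPM in 293T controls, where 7 of the 8 were measured. Most of this sum came from VIM, with 4160 to 4270 CPM in MDA-MB-231 controls and 687 to 1300 CPM in 293T controls. The 7 genes of the 293T list were all measured in 293T (343 to 433 CPM in controls), and 2 of them, L1CAM and ENO2, in MDA-MB-231 (221 to 261 CPM). Both of these were higher in MDA-MB-231 controls than in 293T controls: L1CAM had 123 to 137 CPM against 1.14 to 2.05 CPM, and ENO2 had 96.1 to 130 CPM against 38.4 to 65.4 CPM. Their sum therefore does not mark 293T in the MDA-MB-231 tables. Of 11 markers of blood, endothelial, stromal and liver cells, 5 or 6 were measured per table, with sums of 40.1 to 139 CPM in controls. Most of each sum came from 1 gene. In MDA-MB-231 controls CD68 had 82.6 to 105 CPM, and in 293T controls COL1A1 had 36.4 to 60.6 CPM. These sums therefore do not mark other cells as a group. The unnumbered control library of the 293T siRNA experiment stood apart, with a chi-square per degree of freedom of 19.2 and 22.8 against the other controls, which differed from each other by 2.02. In MDA-MB-231, siControl replicate 1 stood apart less, with 6.72 and 7.66, and other pairs within groups had 1.33 to 3.1.

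All 10 subunits were more abundant in MDA-MB-231 than in 293T, with both kinds of control, where 36.1% of all 14282 genes tested were higher and 36.8% lower in MDA-MB-231. Since each line came with its own tables, line and table cannot be told apart. ITGA3, a laminin receptor subunit, differed most, 96.4-fold between the siControl groups and 59.3-fold between the shControl groups (log2 differences 6.59 ± 0.043 and 5.89 ± 0.031 (SE), edgeR adjusted p = 4.26e-27 and 1.28e-54). The collagen receptor subunit ITGA2 was 45.9- and 45.1-fold higher, and ITGB4 36.2- and 26.9-fold higher. ITGAV was 3.06- and 3.96-fold higher and ITGB8 6.58- and 3.59-fold; the smallest fold among the 10 was that of ITGAV with siControl and that of ITGB8 with shControl. Without the unnumbered 293T control, the siControl folds of ITGA3, ITGA2, ITGB4, ITGAV and ITGB8 were 93.9, 39.9, 39.1, 2.73 and 6.59, and all 10 subunits were still called higher.

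Levels of different genes were compared per kilobase of exon (GENCODE 29, CPM per kb). ITGB1 stood first in all 4 control groups, with 26.1 ± 1.05 and 27.3 ± 0.172 CPM per kb in 293T siControl and shControl and 279.8 ± 1.42 and 283 ± 6.05 CPM per kb in MDA-MB-231 (SD, n = 3). In MDA-MB-231 siControl it was followed by ITGA3 with 107 ± 0.7, ITGA6 with 87.5 ± 1.42, ITGA2 with 83.7 ± 1.53 and ITGA5 with 40.7 ± 0.592 CPM per kb. ITGB5, ITGAV and ITGB4 had 32.0 ± 0.486, 18.4 ± 0.761 and 12.9 ± 0.47 CPM per kb, and ITGB3 and ITGB8 closed the order with 1.61 ± 0.0943 and 0.354 ± 0.0994. Each gap in that order exceeded the summed SDs of its neighbours. These SDs cover the spread between libraries only. The length joins all annotated exons of a gene and not those of the transcript present, so an order between genes also depends on that length. In MDA-MB-231 shControl the order was alike, but ITGAV (24.2 ± 1.26) and ITGB5 (23.4 ± 0.904) lay within their spread. In 293T shControl, ITGAV (7.08 ± 0.207) and ITGA5 (7.06 ± 0.505) followed ITGB1 and could not be ordered, nor could ITGA6 (5.75 ± 0.129) and ITGB5 (5.73 ± 0.159), nor ITGA3 (1.95 ± 0.0805) and ITGA2 (1.82 ± 0.0636). ITGB4, ITGB3 and ITGB8 were the lowest in 293T as well, with 0.673 ± 0.0891, 0.144 ± 0.0111 and 0.0747 ± 0.0119 CPM per kb with shControl. In 293T siControl, whose spread includes the unnumbered library, the 4 genes ITGA5, ITGAV, ITGA6 and ITGB5 lay within their spread from one to the next.

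**Figure D1:**
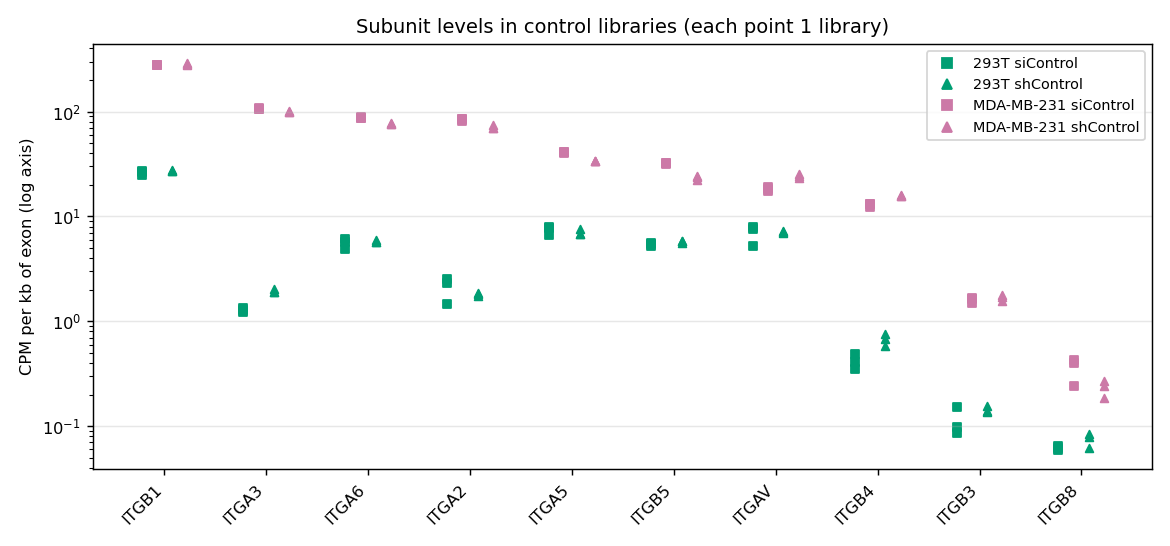
Level of each subunit in CPM per kilobase of exon (log axis) in the 3 libraries of each control group, 1 point per library, with genes ordered by their level in MDA-MB-231 siControl. Every MDA-MB-231 point lies above the 293T points of the same gene, and ITGB1 is the highest in all 4 groups.

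RefSeq promoter windows (250 bases before to 50 after the start, build GRCh38.p14) were at hand for 7 of the 10 genes: ITGA2, ITGA5, ITGA6, ITGAV, ITGB1, ITGB5 and ITGB8. The letters CCGCCC, the sequence bound by the ARID domain of KDM5A in earlier biochemical work, were searched on both strands, where the other strand reads GGGCGG, the GC box bound by Sp1. They stood in 45% of all 35116 promoter windows and in 9 of the 12 windows of these 7 genes, some of which have more than 1 start. ITGAV held none. The windows of ITGB1, ITGA2 and ITGB8 are shown because these genes carry the main changes described below: ITGB1 fell with every KDM5A shRNA, ITGA2 fell in MDA-MB-231 with all 4 reagents, and ITGB8 moved in opposite directions with the KDM5A shRNAs in MDA-MB-231. Each is written 5′ to 3′ on the strand of the gene, and capitals mark CCGCCC or GGGCGG. The ITGB1 window, chr10:32958181-32958480 on the minus strand, is 78.3% G and C with 3 matches, against a median of 58.7% G and C over all windows, and a second RefSeq start of the gene, at chr10:32935509-32935808, held none. The ITGA2 window, chr5:52989102-52989401 on the plus strand, is 72.7% G and C with 4 matches. The ITGB8 window, chr7:20330650-20330949 on the plus strand, is 71.7% G and C with 2 matches.
ITGB1: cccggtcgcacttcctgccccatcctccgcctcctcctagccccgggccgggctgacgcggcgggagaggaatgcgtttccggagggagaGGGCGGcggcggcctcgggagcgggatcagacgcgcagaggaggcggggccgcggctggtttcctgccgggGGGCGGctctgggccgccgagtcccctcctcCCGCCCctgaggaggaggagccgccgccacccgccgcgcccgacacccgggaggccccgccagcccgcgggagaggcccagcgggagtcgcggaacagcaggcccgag
ITGA2: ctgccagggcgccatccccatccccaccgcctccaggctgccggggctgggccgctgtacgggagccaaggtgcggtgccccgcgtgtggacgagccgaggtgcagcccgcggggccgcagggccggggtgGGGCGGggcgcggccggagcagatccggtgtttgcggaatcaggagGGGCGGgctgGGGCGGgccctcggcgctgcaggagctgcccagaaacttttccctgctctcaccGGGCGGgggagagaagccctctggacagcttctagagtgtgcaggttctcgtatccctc
ITGB8: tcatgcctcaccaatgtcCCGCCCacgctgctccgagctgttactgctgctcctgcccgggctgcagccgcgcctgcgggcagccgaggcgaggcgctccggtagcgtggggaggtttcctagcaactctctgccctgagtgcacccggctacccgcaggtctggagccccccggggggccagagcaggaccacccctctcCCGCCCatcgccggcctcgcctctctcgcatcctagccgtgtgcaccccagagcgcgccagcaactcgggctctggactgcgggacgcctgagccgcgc
A match describes the letters of the window, and binding was not measured in these libraries. The remaining windows held 1 match in ITGA5, 1 and 3 at the starts of ITGA6, and 2, 2 and 3 at those of ITGB5. The windows of ITGA6 overlap, and the match in the first is also among those in the second. That site therefore counts for both windows in the share with a match given above. ITGA5, a gene that fell with shKDM5A-1 in both lines, also held 1 match to TGACTCA, the AP-1 site, which stood in 4.95% of all windows.

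In MDA-MB-231 cells given KDM5A shRNA, 7 of 10 subunits fell with both shRNAs, 0 rose with both, and 3 moved in opposite directions. The 7 were ITGA2, ITGA3, ITGA5, ITGAV, ITGB1, ITGB4 and ITGB5. Of the 3, the rises of ITGB3 with shKDM5A-1 and of ITGB8 with shKDM5A-2 were not called by DESeq2 (adjusted p = 0.096 and 0.0866). Over all 15454 genes tested, 15.8% were lower with both, 16.4% higher with both and 7.29% called in opposite directions. All 10 were called with each shRNA (edgeR adjusted p under 0.05), where 55.3% of all genes were called with shKDM5A-1 and 59.0% with shKDM5A-2. The median log2 fold change of the 10 was -0.41 and -0.38, against -0.0048 and 0.002 over all genes. In 293T, 1 of 10, ITGB1, fell with both shRNAs, 0 rose with both and 2 moved in opposite directions, where 6.11%, 7.33% and 8.59% of all 17376 genes tested did so. Of these 2, ITGA6 was not called with shKDM5A-1 by DESeq2 (adjusted p = 0.104). There, 8 of 10 were called with shKDM5A-1 and 4 of 10 with shKDM5A-2, against 42.2% and 39.0% of all genes, and the medians were -0.29 and -0.07, against -0.0044 and 6e-04.

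**Figure D2:**
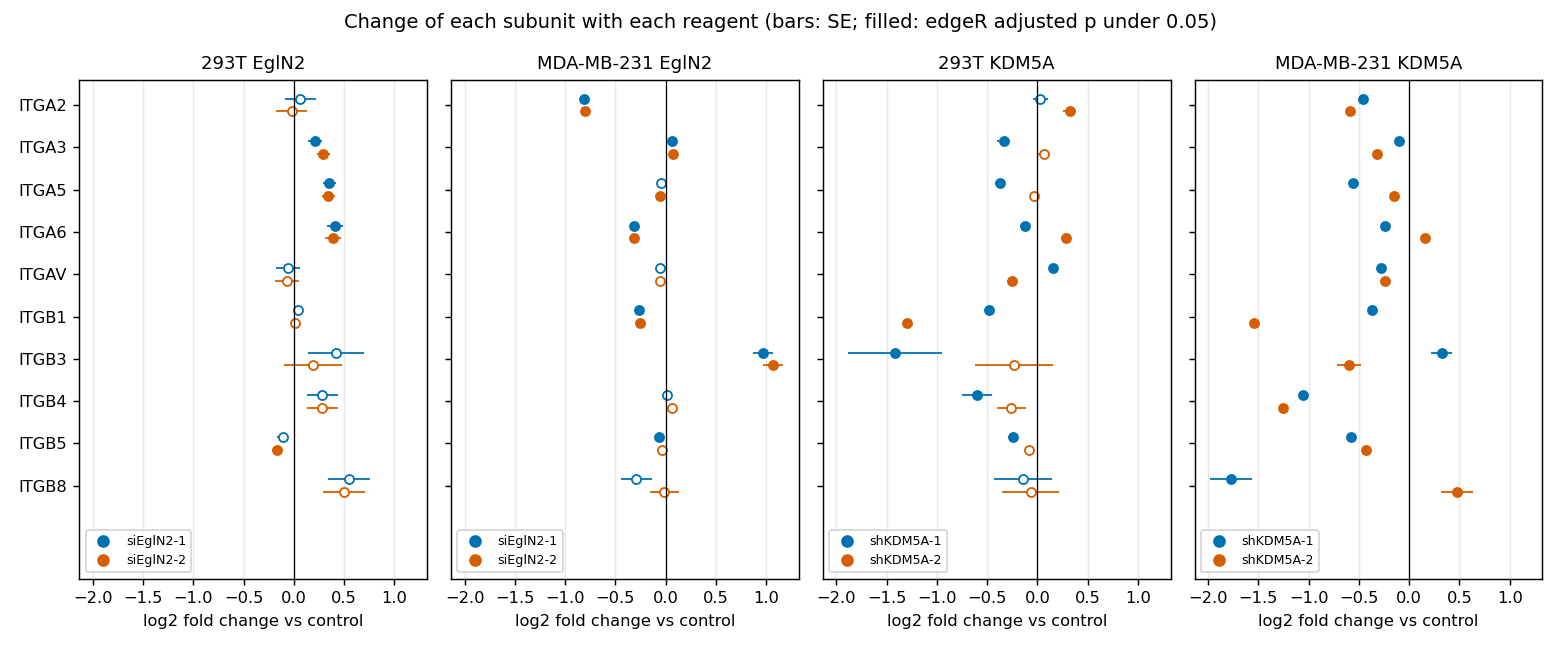
The log2 fold change of each subunit against the controls of its own experiment, with its SE, for reagent 1 (blue) and reagent 2 (orange); filled points have an edgeR adjusted p under 0.05. Blue and orange points nearly coincide for the EglN2 siRNAs and part for most subunits with the KDM5A shRNAs, ITGB8 in MDA-MB-231 the furthest apart.

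ITGB1, the shared beta subunit, fell with all 4 KDM5A comparisons and most with shKDM5A-2. In 293T its 3 shControl libraries had 165, 163 and 164 CPM, the shKDM5A-1 libraries 116, 118 and 119 CPM, and the shKDM5A-2 libraries 67.7, 65.5 and 67.0 CPM. The 3 groups did not overlap. On the log2 scale ITGB1 changed by -0.48 ± 0.028 with shKDM5A-1 and by -1.30 ± 0.030 with shKDM5A-2 (SE, edgeR adjusted p = 4.04e-16 and 5.8e-28). The level in MDA-MB-231 went from 1661, 1733 and 1706 CPM to 1312, 1322 and 1322 CPM and to 579, 585 and 586 CPM. Again no library of one group reached another group, with log2 fold changes of -0.37 ± 0.021 and -1.54 ± 0.021 (edgeR adjusted p = 3.13e-16 and 1.16e-32). The shRNAs differed from each other by -0.82 ± 0.032 in 293T and by -1.18 ± 0.021 in MDA-MB-231 (reagent 2 minus reagent 1, log2, edgeR adjusted p = 6.55e-22 and 3.01e-29). The KDM5A transcript was not lower with shKDM5A-2 than with shKDM5A-1: it had 30.9, 32.7 and 31.2 CPM against 27.6, 27.7 and 26.3 CPM in 293T, and 19.4, 18.3 and 18.6 CPM against 16.1, 17.4 and 16.9 CPM in MDA-MB-231. The part of the KDM5A level in the difference between the shRNAs was not tested. ITGB1 shares sequence with the processed pseudogene ITGB1P1, which had 53.4 to 58.6 CPM in MDA-MB-231 shControl, 45.9 to 48.3 CPM with shKDM5A-1 and 18.2 to 19.8 CPM with shKDM5A-2, so reads may have been split between them.

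**Figure D3:**
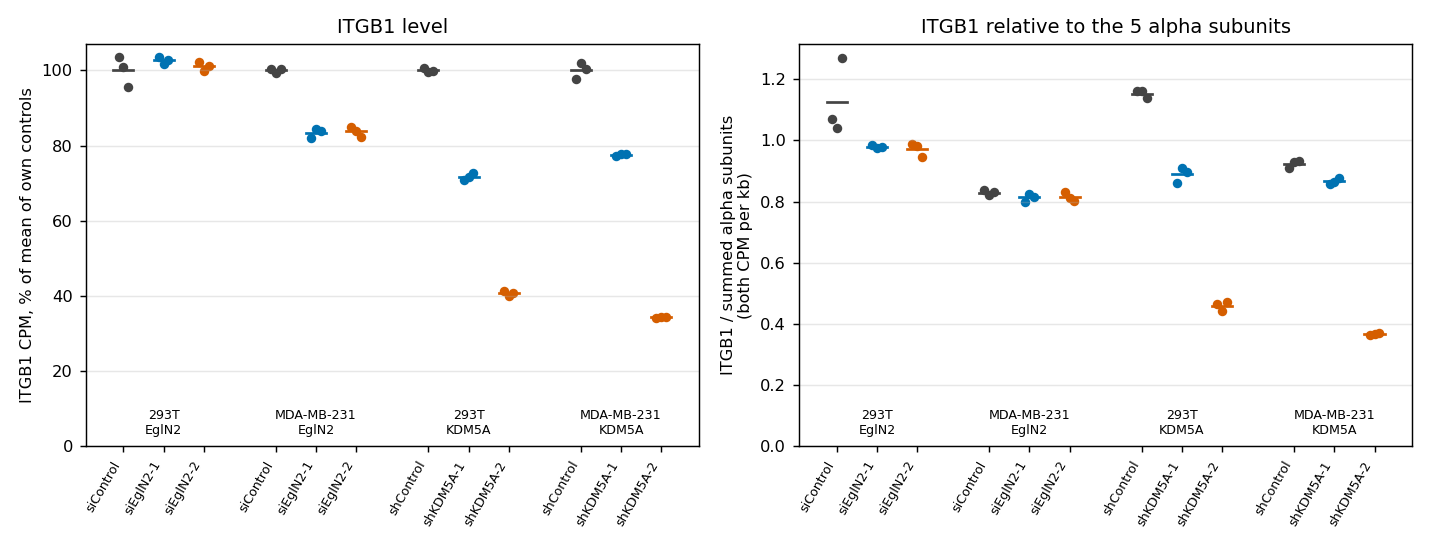
Left, ITGB1 in each library as a percentage of the mean CPM of its own controls; right, ITGB1 divided by the sum of ITGA2, ITGA3, ITGA5, ITGA6 and ITGAV, all in CPM per kilobase of exon. Points are libraries, lines are group means and both axes start at 0; the shKDM5A-2 libraries are the lowest in both panels in both cell lines, with mean ratios of 0.46 in 293T and 0.368 in MDA-MB-231.

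With shKDM5A-2 the mean sum of the alpha subunits was lower than in controls in MDA-MB-231, by a smaller share than ITGB1, and was not lower in 293T. In 293T, ITGA2, ITGA3, ITGA5, ITGA6 and ITGAV together made 23.7 ± 0.222 CPM per kb with shControl, 22 ± 0.438 with shKDM5A-1 and 24.1 ± 0.562 with shKDM5A-2 (SD, n = 3). The ratio of ITGB1 to this sum went from 1.15 ± 0.0115 to 0.89 ± 0.0246 and 0.46 ± 0.0161. In MDA-MB-231 the sum was 306 ± 3.79, 253 ± 2.39 and 264 ± 0.231 CPM per kb, and the ratio went from 0.924 ± 0.0119 to 0.866 ± 0.0104 and 0.368 ± 0.00252. ITGB1 made 87.3 ± 0.404% of the 5 beta subunits in MDA-MB-231 shControl, a higher 89.6 ± 0.0577% with shKDM5A-1 and a lower 79.3 ± 0.351% with shKDM5A-2. In 293T it made 80.5 ± 0.351%, 78.5 ± 0.551% and 64.3 ± 0.551%. These ratios describe transcripts, and no test was made on them.

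ITGB4, the hemidesmosome subunit, fell by more than any of the other 9 with the mean of both shRNAs in MDA-MB-231. Its 3 controls had 106, 108 and 105 CPM, the shKDM5A-1 libraries 50.4, 50.5 and 51.9 CPM and the shKDM5A-2 libraries 44.9, 45.4 and 42.8 CPM. Both knockdown groups lay below every control, with log2 fold changes of -1.06 ± 0.038 and -1.26 ± 0.038 (SE, edgeR adjusted p = 2.87e-21 and 2.14e-23). In 293T, where ITGB4 was scarce, it had 3.94, 4.57 and 5.14 CPM in controls, 3.34, 2.94 and 2.72 CPM with shKDM5A-1 and 3.89, 3.76 and 3.77 CPM with shKDM5A-2. The change passed with shKDM5A-1 (-0.60 ± 0.15, edgeR adjusted p = 0.00117) and not with shKDM5A-2 (-0.26 ± 0.14, adjusted p = 0.15), and the difference between the shRNAs did not pass (0.35 ± 0.15, adjusted p = 0.0625). Its partner ITGA6 moved in opposite directions with the shRNAs in both lines. In MDA-MB-231, ITGA6 had 497, 509 and 500.3 CPM in controls, 430.4, 428.5 and 421 CPM with shKDM5A-1 and 562, 552 and 563 CPM with shKDM5A-2. The controls lay between the knockdown groups without overlap (-0.24 ± 0.023 and 0.15 ± 0.022, edgeR adjusted p = 1.58e-10 and 5.1e-07). In 293T the change was -0.13 ± 0.050 and 0.28 ± 0.047 (edgeR adjusted p = 0.0405 and 8.37e-06), and the first of these calls was lost with DESeq2 (adjusted p = 0.104) and when any 1 of 5 libraries was left out. The ratio of ITGB4 to ITGA6, per kb, went from 0.204 ± 0.001 to 0.115 ± 0.00321 and 0.0767 ± 0.00304 in MDA-MB-231 (SD, n = 3).

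Among the other alpha subunits that pair with ITGB1, the fibronectin receptor subunit ITGA5 fell mainly with shKDM5A-1. In MDA-MB-231 it had 256, 256 and 255 CPM in controls, 169, 178 and 172 CPM with shKDM5A-1 and 236, 232 and 224 CPM with shKDM5A-2. All 6 knockdown libraries lay below the controls (-0.56 ± 0.028 and -0.15 ± 0.028, edgeR adjusted p = 1.88e-17 and 2.33e-05), and the shRNAs differed by 0.41 ± 0.028 (adjusted p = 4.04e-14). In 293T, ITGA5 fell with shKDM5A-1 (-0.37 ± 0.048, edgeR adjusted p = 5.28e-08) and had -0.03 ± 0.045 with shKDM5A-2 (adjusted p = 0.609). The collagen receptor subunit ITGA2 went from 547, 584 and 556 CPM to 419.8, 413 and 396 CPM and to 372, 369 and 383 CPM in MDA-MB-231. No knockdown library reached a control (-0.46 ± 0.027 and -0.59 ± 0.027, edgeR adjusted p = 1.41e-15 and 1.92e-18). In 293T, ITGA2 had 0.03 ± 0.072 with shKDM5A-1 (adjusted p = 0.782) and rose with shKDM5A-2 from 14.4, 14.9 and 13.9 CPM to 18.2, 18.1 and 17.6 CPM (0.32 ± 0.068, edgeR adjusted p = 0.000232). ITGA3 fell in MDA-MB-231 by 0.10 ± 0.021 and 0.32 ± 0.021 on the log2 scale (edgeR adjusted p = 0.000102 and 1.45e-14). In 293T it fell with shKDM5A-1 (-0.34 ± 0.066, adjusted p = 7.91e-05) and had 0.06 ± 0.062 with shKDM5A-2 (adjusted p = 0.469).

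Of ITGAV and its beta partners, ITGAV and ITGB5 fell with both shRNAs in MDA-MB-231, while ITGB3 and ITGB8 moved in opposite directions. ITGAV had 189, 209 and 198 CPM in controls, 165, 166 and 159.9 CPM with shKDM5A-1 and 167, 169 and 169.6 CPM with shKDM5A-2. It was the 1 subunit there that did not differ between the shRNAs by the test (0.04 ± 0.032, edgeR adjusted p = 0.265), and it changed by -0.28 ± 0.032 and -0.24 ± 0.032 (adjusted p = 4.21e-09 and 9.32e-08). In 293T, ITGAV rose with the first shRNA and fell with the second (0.16 ± 0.042 and -0.26 ± 0.043, edgeR adjusted p = 0.00272 and 7.6e-06). ITGB5, a vitronectin receptor subunit, fell by 0.58 ± 0.034 and 0.43 ± 0.033 in MDA-MB-231 (edgeR adjusted p = 1.04e-15 and 7.76e-13). In 293T it fell with shKDM5A-1 (-0.25 ± 0.050, adjusted p = 9.7e-05) and had -0.08 ± 0.047 with shKDM5A-2 (adjusted p = 0.199).

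ITGB8, whose pairing with ITGAV activates latent TGF-beta, had 2.83, 4.06 and 3.66 CPM in MDA-MB-231 controls, 1.03, 1.06 and 1.00 CPM with shKDM5A-1 and 5.12, 4.25 and 5.40 CPM with shKDM5A-2. The 3 groups did not overlap. It fell by 1.77 ± 0.21 with shKDM5A-1 (edgeR adjusted p = 8.1e-09) and rose by 0.48 ± 0.16 with shKDM5A-2 (adjusted p = 0.00917), a call that was lost with DESeq2 (0.0866), without shControl replicate 1 (0.0656) or without shKDM5A-2 replicate 3 (0.0537). The shRNAs differed by 2.25 ± 0.19 (edgeR adjusted p = 1.07e-11). In 293T, ITGB8 had 0.848 to 1.28 CPM in all 9 libraries, and no comparison passed (adjusted p = 0.734, 0.881 and 0.851). ITGB3, the best studied partner of ITGAV, had 7.82, 7.49 and 6.86 CPM in MDA-MB-231 controls, 10.2, 9.07 and 8.36 CPM with shKDM5A-1 and 4.77, 4.84 and 4.96 CPM with shKDM5A-2. The controls lay between the shRNA groups without overlap (0.32 ± 0.10 and -0.60 ± 0.12, edgeR adjusted p = 0.00861 and 4.82e-05), and the rise was lost with DESeq2 (0.096), without shControl replicate 3 (0.0661) or without shKDM5A-1 replicate 1 (0.0819). In 293T, ITGB3 rested on 12 to 14 counts per control library, 2 to 6 counts with shKDM5A-1 and 9 to 12 counts with shKDM5A-2. Its fall with shKDM5A-1 (-1.42 ± 0.47, edgeR adjusted p = 0.0119) was lost without shKDM5A-1 replicate 2 (-1.09, adjusted p = 0.0886), and DESeq2 gave it no adjusted p (-1.43). Its difference between the shRNAs there (1.19, edgeR adjusted p = 0.0364) was lost with DESeq2 (0.151), with no low-count filter (0.0533) and without any 1 of 4 libraries, with adjusted p up to 0.182. ITGB3 overlaps an exon of a second gene on the same strand, and its value is uncertain for that reason too.

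The shRNAs differed from each other for 9 of 10 subunits in MDA-MB-231 and for 8 of 10 in 293T, where 56.6% and 49.3% of all genes did. ITGA5, ITGA6 and ITGB5 were higher and ITGB1 lower with shKDM5A-2 than with shKDM5A-1 in both lines, ITGB5 by 0.17 ± 0.050 in 293T and 0.15 ± 0.035 in MDA-MB-231 (log2, SE, edgeR adjusted p = 0.00536 and 0.000611). The sum of the MDA-MB-231 marker genes moved with the groups as well, from 7810 to 7880 CPM in shControl to 7330 to 7410 CPM with shKDM5A-1 and 6100 to 6150 CPM with shKDM5A-2, over 8 of 8 genes. In 293T the same list went from 1550 to 1560 CPM to 1340 to 1360 CPM and 1090 to 1110 CPM, over 7 genes. VIM alone had 4160 to 4260 CPM in the MDA-MB-231 controls and 1280 to 1300 CPM in the 293T controls, so these sums do not show the genes moving together. L1CAM and ENO2 together went from 221 to 234 CPM in MDA-MB-231 shControl to 156 to 170 CPM with shKDM5A-1 and 104 to 107 CPM with shKDM5A-2. In 293T the 293T list went from 425 to 433 CPM to 377 to 384 CPM and 398 to 401 CPM, over 7 genes. The markers of other cell types had 131 to 139, 178 to 184 and 116 to 119 CPM in MDA-MB-231, over 6 of 11 genes, and CD68 alone had 100 to 105 CPM in controls. In 293T these markers had 40.1 to 43.2, 41.8 to 44.3 and 43.5 to 45.4 CPM, over 5 of 11, and COL1A1 alone had 36.4 to 39.5 CPM in controls. No measured marker was at 0 in all libraries of a group. The part of these lists in the results was not tested.

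**Figure D4:**
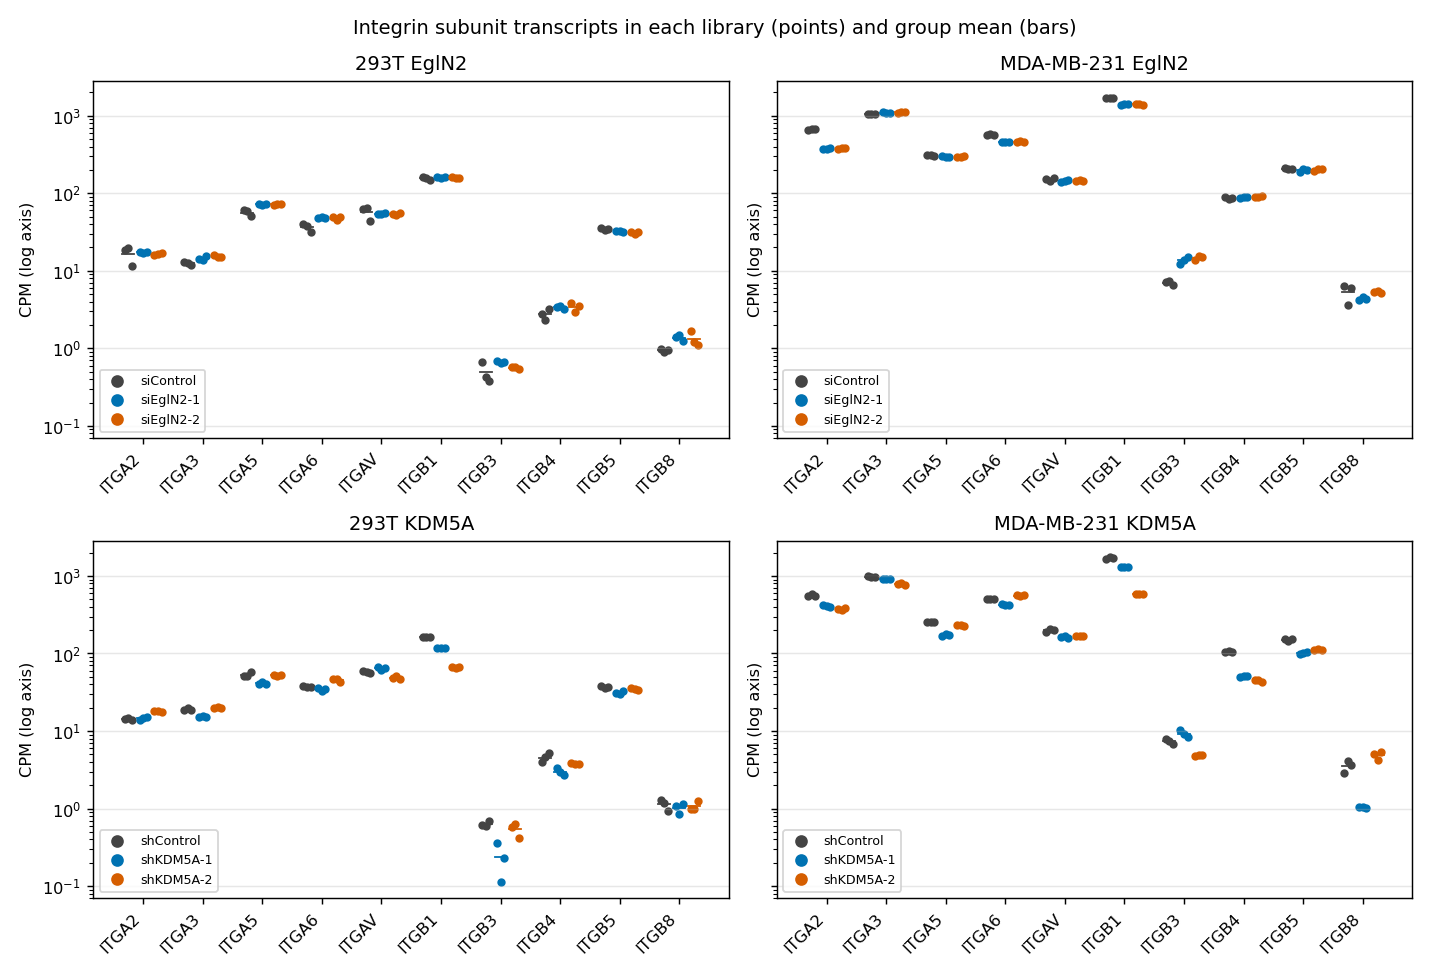
CPM of each subunit in every library (points, log axis) with group means (bars), for controls (grey), reagent 1 (blue) and reagent 2 (orange) in the 4 experiments. In MDA-MB-231, ITGA2 and ITGB3 part from their controls with the EglN2 siRNAs, and ITGB1, ITGB4 and ITGB8 with the KDM5A shRNAs.

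In MDA-MB-231 cells given EglN2 siRNA, ITGA2, ITGA6 and ITGB1 fell with both siRNAs and ITGA3 and ITGB3 rose with both. Thus 3 of 10 were lower and 2 of 10 higher with both, where 20.4% and 18.3% of all 15109 genes tested were. Each siRNA called 6 of 10, against 44.5% and 45.4% of all genes, with medians of -0.06 and -0.05, against 0.0038 and 0.0019 over all genes. No subunit was called in opposite directions, as was the case for 0% of all genes. Without siControl replicate 1, 3 of 10 were lower and 2 of 10 higher with both, where 18.1% and 17% of all 15380 genes then tested were. Each siRNA called 5 of 10 in that setting, for which the share of all genes called with each siRNA was not counted. The log2 fold changes were then -0.83 and -0.82 for ITGA2, -0.32 with each siRNA for ITGA6, -0.26 and -0.25 for ITGB1, 0.99 and 1.09 for ITGB3 and 0.06 and 0.07 for ITGA3.

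The collagen receptor subunit ITGA2 fell the most, from 648, 669 and 669.7 CPM in controls to 373, 376 and 382 CPM with siEglN2-1 and 378, 379.8 and 381 CPM with siEglN2-2. All 6 knockdown libraries lay within 10 CPM of each other and far below the controls, with log2 fold changes of -0.81 ± 0.021 and -0.80 ± 0.021 (SE, edgeR adjusted p = 2.58e-32 and 3.43e-32). ITGA6 went from 568, 582 and 565 CPM to 458, 458 and 464 CPM and to 459, 466 and 453 CPM. Its groups did not overlap either (-0.31 ± 0.020 and -0.32 ± 0.020, edgeR adjusted p = 1.47e-17 and 1.17e-17). ITGB1 went from 1687, 1672 and 1688 CPM to 1379, 1418 and 1411 CPM and to 1430, 1412 and 1386 CPM. It too lay below every control in all 6 libraries (-0.26 ± 0.015 with each siRNA, edgeR adjusted p = 1.19e-19 and 2.81e-19). ITGB1P1 had 53.0 to 64.4 CPM in these controls and 43.2 to 53.5 CPM with the siRNAs.

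ITGB3 rose from 7.22, 7.36 and 6.58 CPM in controls to 12.4, 13.97 and 15.1 CPM with siEglN2-1 and 13.7, 15.5 and 15.2 CPM with siEglN2-2. The knockdown libraries all lay above the controls (0.97 ± 0.10 and 1.07 ± 0.098, edgeR adjusted p = 3.63e-11 and 1.27e-12). ITGA3 rose slightly, from 1044, 1047 and 1058 CPM to 1102, 1091 and 1099 CPM and to 1098, 1112 and 1110 CPM (0.06 ± 0.015 and 0.08 ± 0.015, edgeR adjusted p = 0.000577 and 5.69e-05). ITGA5 passed with siEglN2-2 (-0.06 ± 0.023, adjusted p = 0.0304) and ITGB5 with siEglN2-1 (-0.06 ± 0.024, adjusted p = 0.0355), and neither call held without siControl replicate 1 (adjusted p = 0.061 and 0.176) or replicate 2 (0.122 and 0.103). ITGAV, ITGB4 and ITGB8 passed with neither siRNA. On the log2 scale ITGAV had -0.06 with each, ITGB4 had 0.02 and 0.06, and ITGB8 had -0.29 and -0.01. ITGB8 ran from 3.65 to 6.44 CPM among the controls alone, and without siControl replicate 2, its lowest control, the fall with siEglN2-1 passed (-0.51, edgeR adjusted p = 0.00425), as did the falls of ITGAV with both siRNAs (-0.09 each, adjusted p = 0.00814 and 0.00828). The marker sum of this line was 7540 to 7670 CPM in controls and 7120 to 7260 CPM with the siRNAs, over 8 of 8 genes, and VIM alone had 4180 to 4270 CPM in controls. L1CAM and ENO2 together had 257 to 261 CPM and 203 to 208 CPM, and the markers of other cell types, over 5 of 11, had 108 to 115 CPM and 97.6 to 105 CPM. Their part in these values was not tested.

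In 293T cells given EglN2 siRNA, the alpha subunits ITGA3, ITGA5 and ITGA6 rose with both siRNAs and 0 of 10 fell with both, where 14.6% and 15.5% of all 17622 genes tested did. siEglN2-1 called 3 of 10 and siEglN2-2 called 4 of 10, against 35.1% and 34.2% of all genes, with medians of 0.25 and 0.23, against 0.011 and 0.0089. Subunits called in opposite directions numbered 0, as did genes of all kinds (0%). Without the unnumbered control, 2 of 10 rose with both and 1 fell with both, where 17.3% and 20.2% of all 18006 genes then tested did. The siRNAs then called 3 and 6, and the share of all genes called with each siRNA was not counted in that setting. Sums of the marker lists moved with the groups here too. The MDA-MB-231 list, over 7 of 8 genes, had 922 to 972 CPM in controls, of which VIM alone had 687 to 774 CPM, and 799 to 809 CPM with the siRNAs. The 293T list, over 7 of 7, had 343 to 367 CPM in controls and 379 to 406 CPM with the siRNAs. Markers of other cell types, over 5 of 11, had 55.1 to 65.5 CPM and 46.8 to 51.1 CPM, and the part of these lists in the results was not tested.

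ITGA6 went from 40.1, 37.5 and 32.1 CPM in controls, the last in the unnumbered library, to 48.2, 50.02 and 47.7 CPM and to 48.95, 45.1 and 49.99 CPM. Every knockdown library exceeded every control (0.41 ± 0.077 and 0.39 ± 0.077, edgeR adjusted p = 0.00213 and 0.00298). ITGA5 went from 60.5, 58.3 and 50.6 CPM to 72.9, 71.3 and 72.3 CPM and to 69.7, 71.8 and 73.7 CPM, again without overlap (0.35 ± 0.062 and 0.34 ± 0.062, edgeR adjusted p = 0.00154 and 0.00184). Without the unnumbered control both genes kept their calls, with 0.33 and 0.30 for ITGA6 and 0.28 and 0.27 for ITGA5. ITGA3 went from 13.1, 12.7 and 11.96 CPM to 14.3, 13.99 and 15.4 CPM and to 16.1, 15.2 and 14.96 CPM (0.21 ± 0.067 and 0.29 ± 0.067, edgeR adjusted p = 0.0332 and 0.00696). Its call with siEglN2-1 was lost without the unnumbered control (0.18, adjusted p = 0.0647), without any 1 of 4 other libraries, and with DESeq2 (0.113).

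ITGAV had 61.8, 65.4 and 43.3 CPM in controls, the last in the unnumbered library, and 52.6 to 56.2 CPM in the 6 siRNA libraries. It did not pass over the 9 libraries (-0.06 ± 0.12 and -0.07 ± 0.12, edgeR adjusted p = 0.725 and 0.686), and it was called lower with both siRNAs without the unnumbered control (-0.22 and -0.23, adjusted p = 9.11e-05 and 5.01e-05). ITGA2 likewise had 18.4, 19.8 and 11.5 CPM in controls and 15.8 to 17.7 CPM with the siRNAs, and fell with siEglN2-2 without that library (-0.22, adjusted p = 0.00961). ITGB1 had -0.02 to 0.04 under both settings and was not called (edgeR adjusted p = 0.485 and 0.81 over the 9 libraries). ITGB5 fell with siEglN2-2 (-0.16 ± 0.052, edgeR adjusted p = 0.0315, a call lost when any 1 of 5 libraries was left out) and had -0.11 ± 0.052 with siEglN2-1 (adjusted p = 0.114). The scarce beta subunits did not pass with either siRNA. ITGB3 had 0.42 and 0.19 (log2) on 8 to 16 counts per library, ITGB4 had 0.28 with each on 60 to 81 counts, and ITGB8 had 0.55 and 0.50 on 20 to 35 counts.

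Between the EglN2 siRNAs, 0 of 10 subunits differed in either line by edgeR, with 0 of 10 at an unadjusted p under 0.05 and 0 by DESeq2, and over all genes 0% differed in 293T and 0.00662% in MDA-MB-231. At an unadjusted p under 0.05, 1.57% and 6.22% of all genes differed. The log2 difference for ITGA2 in MDA-MB-231 was 0.01 ± 0.021 and that for ITGB1 was 0.01 ± 0.015 (siEglN2-2 minus siEglN2-1, SE). The ratio of ITGB1 to the 5 alpha subunits was 0.829 ± 0.00902 in MDA-MB-231 siControl and 0.813 ± 0.0126 and 0.814 ± 0.0143 with the siRNAs (SD, n = 3). In 293T it was 1.07 and 1.04 in the numbered siControl libraries and 1.27 in the unnumbered one, and 0.979 ± 0.00513 and 0.972 ± 0.0239 with the siRNAs. All 6 siRNA libraries lay below the 3 controls, and no test was made on the ratio.

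The effect of EglN2 siRNA, as the mean of both reagents, differed between the lines for 6 of 10 subunits, where 31.2% of 14579 genes did. That of KDM5A shRNA differed for 7 of 10, where 44.7% of 14767 genes did. The EglN2 count was 7 of 10 without the unnumbered control and 5 of 10 without MDA-MB-231 siControl replicate 1. The share of all genes was not counted in either setting, so these counts have no background. ITGA2 had a lower effect in MDA-MB-231 than in 293T with both targets: its mean log2 effect was -0.80 ± 0.070 against 0.02 ± 0.10 for EglN2 and -0.53 ± 0.022 against 0.17 ± 0.056 for KDM5A (SE). The differences were -0.82 ± 0.12 and -0.70 ± 0.059 (MDA-MB-231 minus 293T, edgeR adjusted p = 0.000106 and 1.81e-12). Without the unnumbered control, ITGA2 had -0.13 and -0.22 with the EglN2 siRNAs in 293T, and the difference between the lines was -0.63 (edgeR adjusted p = 4.87e-14). ITGA6 had opposite effects of EglN2 siRNA in the lines, -0.31 ± 0.041 in MDA-MB-231 and 0.40 ± 0.049 in 293T, which differed by -0.71 ± 0.064 (edgeR adjusted p = 2.86e-07), or by -0.63 without that library (adjusted p = 7.19e-15). ITGB4 fell more in MDA-MB-231 than in 293T with KDM5A shRNA, by -0.73 ± 0.11 (edgeR adjusted p = 4.03e-07). ITGB1 fell by 0.96 ± 0.016 and 0.89 ± 0.022 with KDM5A shRNA in MDA-MB-231 and 293T, a difference of -0.07 ± 0.028 (edgeR adjusted p = 0.044) that was lost in 11 of 23 alternative settings. These means join unlike shRNAs. With shKDM5A-1, ITGB1 fell less in MDA-MB-231 than in 293T (-0.37 against -0.48), and with shKDM5A-2 it fell more (-1.54 against -1.30). The difference between the lines was not tested for each shRNA alone.

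**Figure D5:**
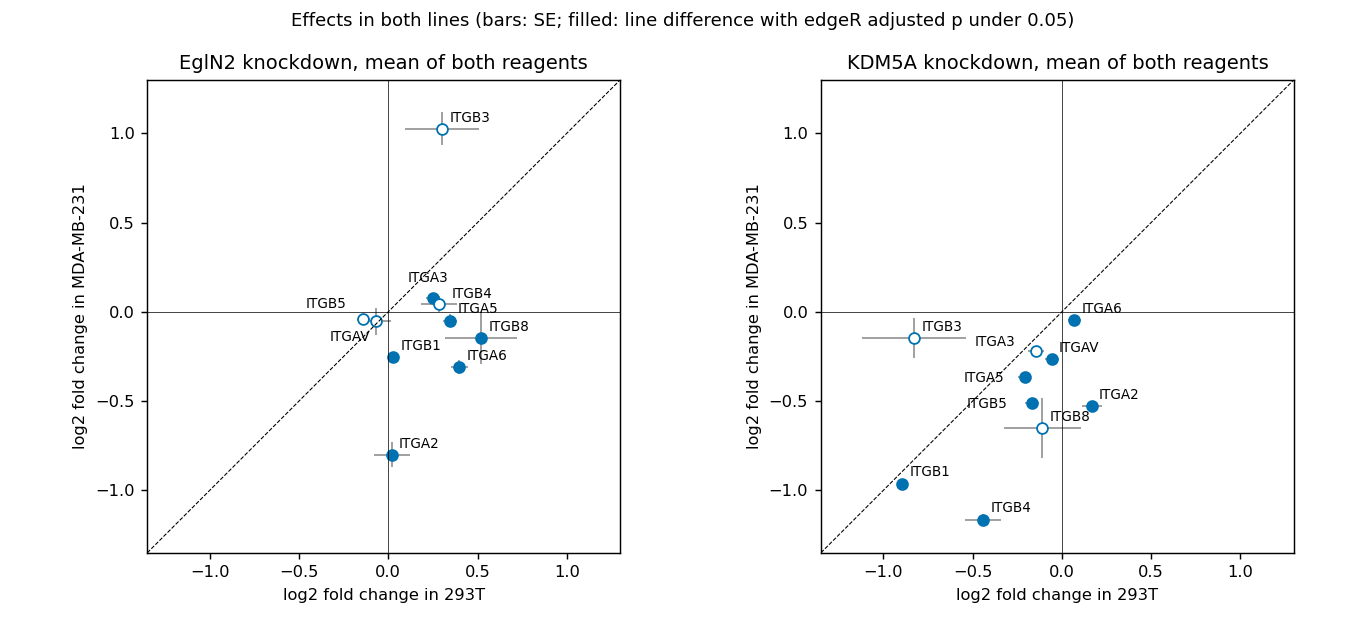
Mean log2 effect of both reagents in 293T (x axis) and in MDA-MB-231 (y axis) with SE, for EglN2 (left) and KDM5A (right); the dashed line marks equal effects, and filled points differ between the lines with an edgeR adjusted p under 0.05. ITGA2 and ITGA6 lie far below the line for EglN2, while ITGB1 lies close to it for KDM5A, with -0.89 and -0.96. The KDM5A points average shRNAs that differed from each other for most subunits. For ITGB1 the order of the lines was opposite with the shRNAs, a difference that was not tested for each shRNA alone.

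For the subunits that changed by at least 0.5 (log2) with both reagents of an experiment and in the same direction, the genes with the most similar pattern were sought among 11191 genes, by Euclidean distance over the 8 log2 fold changes. ITGA2 was closest to GFPT2, an enzyme of hexosamine synthesis (distance 0.397), where the median gene lay at 1.55. ITGB4 was closest to ICA1 (0.451) and PPFIBP2 (0.492), against a median of 1.95. ITGB3 was closest to NXPH4 and HSBP1L1, both at 1.13 against a median of 2.3. Its fold changes in 293T rest on few counts, 12 in total with shKDM5A-1. The nearest genes lie below the median by the way they were chosen, and similarity was not tested. ITGB1, whose change with shKDM5A-1 was smaller than 0.5, was not among these subunits.

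Beyond the 10 subunits, 121 symbols of integrin biology in 11 lists were counted, of which 96 to 100 were tested per experiment. In MDA-MB-231 KDM5A, 32 of 96 fell and 13 rose with both shRNAs, where 15.8% and 16.4% of all genes did, and in 293T KDM5A 22 of 100 fell and 4 rose, where 6.11% and 7.33% did. In MDA-MB-231 EglN2, 30 of 96 fell and 30 rose, against 20.4% and 18.3% of all genes. In 293T EglN2, 14 of 99 fell and 16 rose, shares near the 15.5% and 14.6% of all genes. These shares are the background for the lists below. The lists were chosen with earlier results of these data known, so a count above its background is a description and not an independent test. Without the unnumbered control, which was tried after seeing the data, 29 of 99 fell and 17 rose in 293T EglN2, against 20.2% and 17.3% of all genes. Without siControl replicate 1, 28 of 96 fell and 27 rose in MDA-MB-231 EglN2, against 18.1% and 17% of all genes. The median mean log2 fold changes of these genes were -0.11 in both KDM5A experiments, -0.02 in MDA-MB-231 EglN2 and 0.02 in 293T EglN2.

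Among the ligands, 7 of 10 laminin chains fell with both KDM5A shRNAs in 293T, where 6.11% of all genes did, and 0 rose with both. In MDA-MB-231, 4 of 10 fell and 1 rose, against 15.8% and 16.4% of all genes, and the remaining 5 did not change in 1 direction with both. LAMB3, a chain of laminin-332, had log2 fold changes of -1.91 and -2.39 in 293T with the 2 shRNAs, and LAMA5 had -0.997 and -0.92 in MDA-MB-231. LAMA1 fell in 293T (-0.66 and -0.35) and rose in MDA-MB-231 (0.72 and 1.58). Fibronectin, FN1, the ligand of the ITGA5 and ITGB1 pair, fell in both lines, with -0.74 and -0.33 in 293T and -1.002 and -0.91 in MDA-MB-231. Tenascin C, TNC, fell with KDM5A shRNA in 293T (-1.24 and -1.86) and with EglN2 siRNA in MDA-MB-231 (-1.10 and -1.09), where thrombospondin 1, THBS1, rose (0.87 and 0.91). In the list of matrix ligands with FN1, TNC and THBS1, 4 of 9 fell and 0 rose with KDM5A shRNA in 293T, against 6.11% and 7.33%. In MDA-MB-231, 4 of 8 fell and 1 rose with KDM5A shRNA, against 15.8% and 16.4%. With EglN2 siRNA there, 2 of 8 fell and 2 rose, against 20.4% and 18.3%. The basement membrane collagen COL4A2 rose with EglN2 siRNA in both lines (0.89 and 0.89 in 293T, 0.54 and 0.57 in MDA-MB-231). Of the collagens in 293T, 3 of 9 rose and 1 fell, COL1A1 (-0.33 and -0.33), against 14.6% and 15.5% of all genes. Without the unnumbered control, 2 fell there, against 20.2%. In MDA-MB-231, 4 of 8 rose and 2 fell, among them COL6A3 (-0.38 and -0.37), against 18.3% and 20.4%. With EglN2 siRNA, laminin chains counted 3 higher and 0 lower of 9 in 293T, against 14.6% and 15.5% of all genes, and 3 higher and 5 lower of 10 in MDA-MB-231, against 18.3% and 20.4%. Without the unnumbered control, 2 chains were lower in 293T, against 20.2% of all genes, and without siControl replicate 1, 2 were higher in MDA-MB-231, against 17%.

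Of partners in the membrane, 9 of 11 fell and 1 rose with both KDM5A shRNAs in MDA-MB-231, where 15.8% and 16.4% of all genes did. The tetraspanin CD82 fell by 1.73 and 0.84 and the caveolar protein CAV1, which is also 1 of the marker genes, by 0.50 and 0.61, while SLC3A2, the heavy chain of an amino acid transporter, rose by 0.50 and 0.68. In 293T KDM5A, 1 of 11 fell, against 6.11% of all genes: CAV1, by 1.09 and 0.36. With EglN2 siRNA, 5 of 11 fell and 1 rose in MDA-MB-231, among them the urokinase receptor PLAUR (-0.59 and -0.65), and 3 of 11 fell in 293T, where 20.4% and 15.5% of all genes fell in the respective lines. In 293T, 5 of 11 fell without the unnumbered control, against 20.2% of all genes, and without siControl replicate 1, 2 of 11 rose in MDA-MB-231, against 17%. Of the other alpha subunits, the collagen receptor subunits ITGA1 (-1.30 and -1.14) and ITGA10 (-2.48 and -1.04) fell with KDM5A shRNA in MDA-MB-231, 2 of 3 tested, against 15.8% of all genes. ITGA10 and ITGAE fell with EglN2 siRNA there (-0.59 and -0.59, -0.51 and -0.45), 2 of 3, against 20.4%. In 293T, ITGA9 fell with KDM5A shRNA (-0.55 and -0.79), 1 of 8, against 6.11% of all genes. With EglN2 siRNA in 293T, ITGA8 and ITGAE fell, 2 of 8, and ITGA2B rose, 1 of 8, against 15.5% and 14.6%. There, 3 of 8 fell without the unnumbered control, against 20.2% of all genes.

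Of the hemidesmosome partners of the ITGA6 and ITGB4 pair, 3 of 3 tested fell with EglN2 siRNA in MDA-MB-231, where 20.4% of all genes did: COL17A1 (-0.72 and -0.77), the plakin PLEC (-0.39 and -0.33) and DST (-0.30 and -0.28). With KDM5A shRNA there, where ITGB4 fell, 1 of 3 did so, against 15.8% of all genes, DST (-0.26 and -0.23). Among kinases and their substrates at focal adhesions, the Src family kinase FYN fell with EglN2 siRNA in both lines, by 1.23 and 1.24 in 293T and by 1.34 and 1.37 in MDA-MB-231, where 2 of 13 and 1 of 13 of the list fell and 3 of 13 rose in each. Of all genes, 15.5% and 20.4% fell and 14.6% and 18.3% rose in 293T and MDA-MB-231. In 293T, 5 of 13 fell without the unnumbered control, against 20.2% of all genes. With KDM5A shRNA, 2 rose and 1 fell of 13 in 293T, and 3 rose in MDA-MB-231, the adaptor CRK in both (0.27 and 0.16, 0.40 and 0.35), against 7.33% and 16.4% of all genes that rose. Talins, kindlins and adaptors counted 3 higher and 6 lower of 22 with KDM5A shRNA in MDA-MB-231, against 16.4% and 15.8% of all genes, where the kindlin FERMT1 rose (0.89 and 1.31), and 4 lower of 20 in 293T, against 6.11%, where talin, TLN1, fell (-0.18 and -0.44). With EglN2 siRNA they counted 10 higher and 3 lower of 22 in MDA-MB-231, against 18.3% and 20.4% of all genes, with the scaffold BCAR1 at 0.41 and 0.40, and 10 higher and 2 lower without siControl replicate 1, against 17% and 18.1%. In 293T they counted 2 higher and 1 lower of 21, against 14.6% and 15.5%, and 3 higher and 3 lower without the unnumbered control, against 17.3% and 20.2%. ITGB1BP1, which competes with talin for the tail of ITGB1, fell with EglN2 siRNA in both lines (-0.46 and -0.40 in 293T, -0.26 and -0.26 in MDA-MB-231). NISCH, also in the list of inhibitors, rose in both (0.39 and 0.39, 0.15 and 0.17). Of the 5 inhibitors, 1 fell and 1 rose in 293T, against 15.5% and 14.6% of all genes. In MDA-MB-231, 2 fell and 3 rose, against 20.4% and 18.3%, and 2 rose without siControl replicate 1, against 17%. With KDM5A shRNA, ITGB1BP1 rose in 293T (0.17 and 0.34), 1 of 5, against 7.33%, and fell in MDA-MB-231 (-0.08 and -0.20), 1 of 2 that fell, against 15.8%. All genes named from these lists as changed had an edgeR adjusted p under 0.05 with both reagents, and those named for EglN2 siRNA kept it without the control library of their experiment that stood apart.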

How the data were processed

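The authors' deposited tables, 1 per experiment, hold 9 columns of raw counts and 9 of normalized values, per the file headers. The deposited raw values were read here as estimated counts that the authors made per gene, since 49.3% to 50.4% are whole (remainder of exactly 0). The deposited log2 normalized values have no stated transformation and were not used, and 1 such column was matched to no sample. Per the submitters' processing notes, STAR 2.4.2, Salmon 0.1.19, GRCh38 and hg19 were used, with no role given; the strand setting of the counting is not given in the sources used here. Genes with fewer than 10 counts in every library were absent, and 20 to 22 names turned into dates (0.194% to 0.209% of counts) were left out. The control column without a replicate number was taken as the remaining 293T siControl library.

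Counts were rounded and fitted per experiment on 9 libraries with edgeR 4.0.16 in R 4.3.3 (TMM, filterByExpr with a count minimum of 10, robust two-sided quasi-likelihood F-test, Benjamini-Hochberg adjustment over all genes tested, call at adjusted p under 0.05). Effects between lines used 18 libraries of a target in 1 fit. Tests were checked on simulated data. Neighbours in an order of levels were called within their spread when their gap was at most the sum of their SDs. Both reagents of an experiment share their controls. Members, lists and tests were chosen with earlier results of these data known. Named genes were the 10 subunits, EGLN2 and KDM5A, the 2 nearest patterns of each subunit that changed by 0.5, and per list and experiment up to 3 genes called with both reagents, from which examples were taken. Some genes of the lists were not analysed here, and 1 gene that the rule took is not reported here. Gene lengths come from GENCODE 29. Exons of ITGA5, ITGA6, ITGAV, ITGB1 and ITGB8 overlap antisense transcripts, whose reads cannot be told apart without strand. Alternatives tried were leaving out each library, an adjusted p under 0.01, DESeq2 1.42.0, its size factors within edgeR, fitting only the 6 libraries compared, no low-count filter and blocking on the replicate number.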

Additional observations from a re-analysis of the deposited data

Results flagged for a closer look

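The effect of a knockdown, as the mean of both reagents, differed between MDA-MB-231 and 293T by edgeR's test of the difference itself. Values are MDA-MB-231 minus 293T on the log2 scale. For EglN2 siRNA they were -0.82 for ITGA2, -0.17 for ITGA3, -0.40 for ITGA5, -0.71 for ITGA6, -0.28 for ITGB1 and -0.67 for ITGB8. For KDM5A shRNA they were -0.70 for ITGA2, -0.15 for ITGA5, -0.12 for ITGA6, -0.21 for ITGAV, -0.067 for ITGB1, -0.73 for ITGB4 and -0.34 for ITGB5. Some of these average shRNAs that moved a subunit in opposite directions. With shKDM5A-1 and shKDM5A-2, ITGA6 had -0.13 and 0.28 in 293T and -0.24 and 0.15 in MDA-MB-231. ITGAV had 0.16 and -0.26 in 293T and -0.28 and -0.24 in MDA-MB-231. The lines were not compared for each shRNA alone. Without the unnumbered 293T control, ITGA3 (-0.15, adjusted p = 0.0601) and ITGB8 (-0.68, adjusted p = 0.0551) lost the call for EglN2, and ITGAV (0.17, adjusted p = 0.00184), ITGB3 (0.86, adjusted p = 0.0383) and ITGB4 (-0.36, adjusted p = 0.0353) gained it. ITGB8 for EglN2 was lost in 20 of 23 alternative settings.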

How the results depend on the processing

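Of 2257 alternative values for 140 tests on the subunits, 2152 kept their side of the threshold, 88 lost a call, 17 gained one and 0 reversed a call. Among the 2152, 38 values turned their sign, none of them called. Counts of called subunits stayed within 1.5 times the reported count in all settings run; with 1 library left out they ran from 2 to 3 and from 3 to 6 for the siRNAs in 293T, from 5 to 7 and from 5 to 6 in MDA-MB-231, from 6 to 8 and from 4 to 4 for the shRNAs in 293T, and from 9 to 10 for each in MDA-MB-231. The 10 subunits were higher in MDA-MB-231 controls in all 41 settings run. Over the lists, 29 genes fell with both siRNAs in 293T without the unnumbered control, against 14 with it, an alternative chosen after seeing the data. Replicate numbers did not pair the libraries: over 34 pairs the highest correlation of deviations was 0.0561. With a replicate block, which leaves out the unnumbered control, siEglN2-1 called 3 and siEglN2-2 called 6 of 10 in 293T, and the call of ITGA3 with siEglN2-1 was lost (0.16, edgeR adjusted p = 0.122). For the counts of called subunits in these alternative settings, the share of all genes called with each reagent was not counted. Depth limits ITGB3 and ITGB8 in 293T most, and intervals of the fit cover the spread between libraries only.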
